A study of Danio rerio with 2 samples.

Results

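The genes of the cytosolic ribosomal proteins were compared between head tissue of wildtype zebrafish embryos and of embryos carrying a mutation in rbm24a. They were chosen by name alone. A gene was taken if its symbol begins with rpl or rps and a digit, or is rpsa or rplp0 to rplp2, ignoring case, and the S6 kinases (rps6k) and names ending in l or like were left out. This gave 80 of the 51544 features in the deposited table, 45 of the large and 35 of the small ribosomal subunit. No feature carried the symbol rpsa. Its gene may be the one listed as RPSA2, which the rule leaves out. Of the symbols, 70 are written as the mammalian name in the names table, such as RPL6, and are given here as they stand there. Of the 80 genes, 79 had a mean of at least 1 CPM (read counts divided by the library total and set to a common scale). The other gene had 0 reads in both libraries. One gene taken by the rule, rps19bp1, encodes a protein named for binding the ribosomal protein Rps19 and is not itself a ribosomal protein. The rule also takes RPL7L1 and RPL22L1, which are named as paralogs of ribosomal proteins. All 3 are counted with the subunit of their symbol.

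Both groups were AB strain embryos at 33 hours post fertilisation, and the tissue was the part of the head in front of the otic vesicle, the early inner ear. The wildtype group had 1 library and served as the control. The mutant group also had 1 library, from rbm24a-/- embryos with an 8 bp deletion made with TALEN nucleases in exon 1. The protein Rbm24a binds RNA, and the title of the study concerns translation and the build-up of crystallins in the lens. How many embryos were pooled for a library is not given in the sources used here.

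Each ribosome has a large subunit, which joins amino acids into protein, and a small subunit, which reads the messenger RNA. Vertebrate ribosomal protein mRNAs begin with a run of pyrimidines, the terminal oligopyrimidine (TOP) tract, through which growth signals set their translation together. They are among the most abundant transcripts of growing embryonic tissue. The values below are levels of mRNA and say nothing of how these mRNAs were translated.

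The library totals were 14148577 reads for the wildtype and 16667612 for the mutant. With 1 library per group no difference has a replicate check, and each interval given is an exact 95% interval for counting error alone. In bulk tissue, fewer cells of a type and less RNA per cell cannot be told apart. The 11 head and brain marker genes matched were all measured, with summed levels of 1567 CPM (wildtype) and 1420 CPM (mutant). Gene by gene, 8 of the 11 had a log2 ratio of mutant over wildtype above 0 and 3 below, with a median of 0.18. Of 6 trunk and tail markers, 4 had no reads in the wildtype and 5 none in the mutant library. The summed level of 6 red cell markers, none at 0 reads, was 709 CPM for the wildtype and 104 CPM for the mutant. That of 8 lens markers, also none at 0, was 1401 and 127 CPM. The part of the head, red cell and lens lists in the results below was not tested.

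Most ribosomal protein genes had slightly higher levels in the mutant library. Together the 79 genes held 1866988 wildtype reads, 13.2% of that library (interval 13.18% to 13.21%). They held 2342496 mutant reads, 14.05% of that library (interval 14.04% to 14.07%). The summed level was 1.07 times as high in the mutant as in the wildtype (interval 1.06 to 1.07). The median log2 ratio of mutant over wildtype, taken with a pseudocount of 1 CPM, was 0.12, with quartiles at 0.01 and 0.19. The median over all 18094 features tested was -0.001.

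Of the 79 genes, 63 had a log2 ratio above 0 and 16 below 0, or 79.7% and 20.3%. Of all features tested, 49.8% lay above 0 and 50.2% below. Abundant transcripts are counted more precisely than rare ones, so a second background was taken after seeing the data. It held the 194 features outside the family with a mean of at least 500 CPM, of which 42.8% lay above 0 and 57.2% below, with a median of -0.02. Their quartiles, -0.11 and 0.08, both lay below the corresponding quartiles of the ribosomal protein genes.

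The differences were small in size. A log2 ratio of 0.322 was taken as a first limit. Past it, 3 of 79 genes were higher and 4 lower, or 3.80% and 5.06%. Among all features tested 17.3% were higher and 18.2% lower by that much, and among the 194 abundant features 5.67% in each direction. With the pseudocount of 1 CPM no gene reached a 2-fold difference, which 2.22% of all features did upwards and 2.82% downwards, and 0.515% and 0% of the abundant features. rps19bp1, described below, came to 2.06-fold without the pseudocount. The share of the family past either limit was thus below that of all features, and near that of the abundant features.

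**Figure D1:**
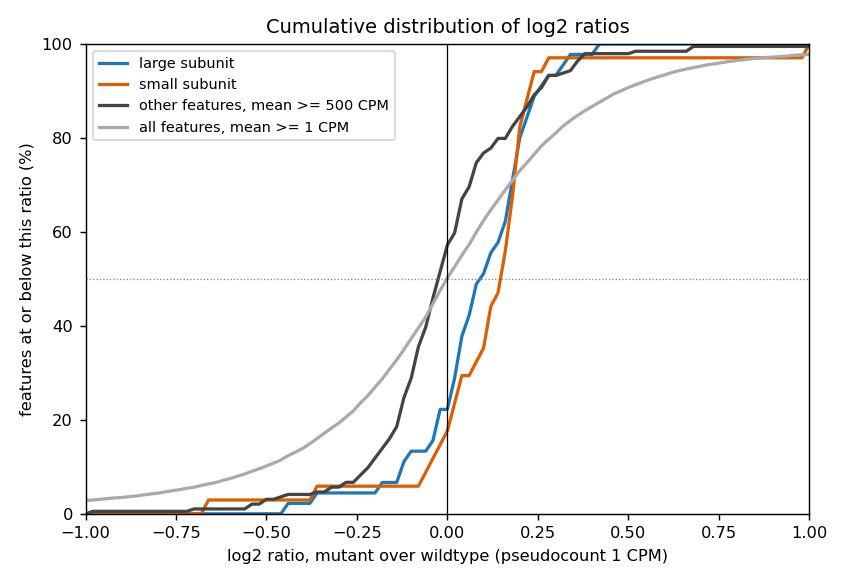
Cumulative share of features (y axis, %) at or below each log2 ratio of mutant over wildtype (x axis, pseudocount 1 CPM) for 45 large subunit genes, 34 small subunit genes, 194 other features of at least 500 CPM and all 18094 features tested. Both subunit curves cross 50% to the right of 0, at 0.08 and 0.14, while the curves of the other features cross it at -0.02 and -0.001.

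The small size makes the scaling of the libraries matter. Against the column sum, the other scalings tried moved every ratio by between -0.0015 and 0.0325 on the log2 scale. The median of the 79 genes was 0.15 with median-of-ratios size factors, 0.12 with TMM factors and 0.13 when the family was left out of the library total. Under each scaling and with deposited RPKM values, the median of the family lay 0.11 to 0.12 above that of all features. A scaling moves all ratios almost alike, and RPKM uses the same column sum. This difference was therefore bound to stay nearly the same and is no check of the shift. The number of genes above 0 was between 63 and 67 under these scalings.

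Counting error was small beside most of these ratios. For 57 of the 79 genes the whole interval of the fold lay above 1, for 15 it lay below 1, and for 7 it held 1. The interval's half-width on the log2 scale had a median of 0.026. Other scalings moved every ratio by up to 0.0325, so this split depends on the column sum. The same count was not made for all features, so the split is not a result about the family. Variation between embryos or between library preparations is not part of these intervals.

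The lowest ratio belonged to rps27.1 (ENSDARG00000023298), 1 of 2 zebrafish genes for the zinc finger protein Rps27 of the small subunit. It had 20609 reads in the wildtype and 15349 in the mutant library, levels of 1457 and 921 CPM. Its mutant level was thus 1.58-fold lower (interval 1.55 to 1.62), with a log2 ratio of -0.66. The small subunit gene next above it was an RPS26 gene (ENSDARG00000037071). Rps26 lies where mRNA leaves the small subunit. That gene had 6731 and 6135 reads, 476 and 368 CPM, or 1.29-fold lower (interval 1.248 to 1.34). The mutant library is the deeper one, so both genes had fewer reads in it although it held more reads in all.

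RPL6 (ENSDARG00000058451), a protein of the large subunit, had 29989 wildtype and 25841 mutant reads. Its levels of 2120 and 1550 CPM differed by 1.37-fold, the mutant being lower (interval 1.34 to 1.39; log2 ratio -0.45). RPL35 (ENSDARG00000018334), which sits at the rim of the tunnel where the new protein leaves the ribosome, had 17554 and 15993 reads. At 1241 and 960 CPM it was 1.29-fold lower (interval 1.27 to 1.32). These 4 genes stood apart from the rest of the family: the next lowest ratio was -0.20, that of RPLP1, and the other 11 genes below 0 were at -0.13 or above.

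The 3 genes higher past a log2 ratio of 0.322 include those with the fewest reads in the family, rps19bp1 and RPL7L1. rps19bp1 (ENSDARG00000091124) had 199 wildtype and 484 mutant reads, 14.1 and 29.0 CPM. This was 2.06-fold higher (interval 1.75 to 2.45), or a log2 ratio of 0.996 with the pseudocount. RPL7L1 (ENSDARG00000042864), a relative of Rpl7 that in mammals acts in building the large subunit, had 1740 and 2723 reads. At 123 and 163 CPM it was 1.33-fold higher (interval 1.2504 to 1.41). RPL22 (ENSDARG00000070437), an RNA-binding protein of the large subunit needed for T cell development in mice, had 10286 and 15219 reads. At 727 and 913 CPM it was 1.26-fold higher (interval 1.22 to 1.29). Of these 3 genes only RPL22 encodes a standard ribosomal protein.

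**Figure D2:**
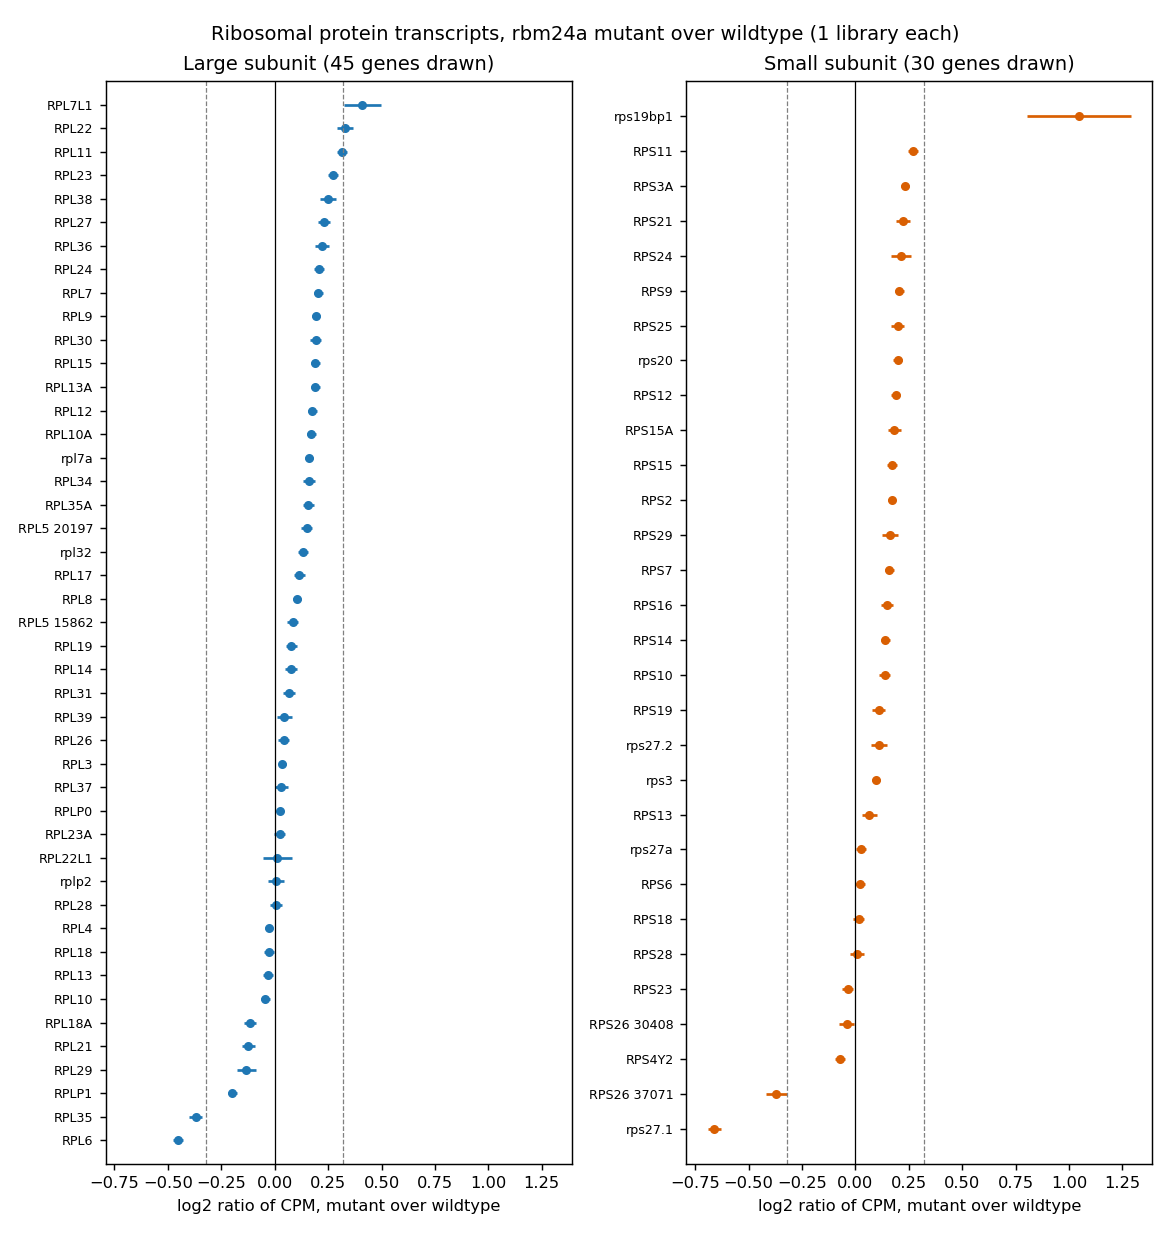
log2 ratio of CPM, mutant over wildtype, without a pseudocount (x axis) for 75 genes (y axis, sorted; numbers after a repeated symbol are the last digits of its gene ID), large subunit on the left and small subunit on the right. Lines are 95% exact intervals of counting error and dashed lines mark a log2 ratio of 0.322 in either direction. rps27.1, RPL6, RPL35 and 1 RPS26 gene lie below the lower dashed line, and rps19bp1, RPL7L1 and RPL22 above the upper.

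Both subunits shared the shift. The 45 large subunit genes summed to 78142 CPM (wildtype) and 82494 CPM (mutant), a summed fold of 1.06 (interval 1.05 to 1.06). Their median log2 ratio was 0.08, with 35 above 0 and 10 below. The 34 small subunit genes had 53814 and 58048 CPM, a summed fold of 1.08 (interval 1.075 to 1.082). Their median was 0.14, with 28 above 0 and 6 below. The shares above 0 were 77.8% (large) and 82.4% (small), beside 49.8% of all features and 42.8% of the abundant features.

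The medians of the subunits differed by 0.06 on the log2 scale, the large subunit being lower. The quartiles were 0.01 and 0.19 for the large and 0.02 and 0.19 for the small subunit genes, so the subunits overlapped almost wholly. Genes of a subunit are not replicates of a condition, and with 1 library per group this difference was not tested. As large minus small, it lay between -0.084 and -0.056 under every alternative run. A library scaling moves both medians alike, so mainly the settings that changed which genes entered could move this difference.

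Within the large subunit, the stalk recruits the factors that drive elongation. It is built from the base protein Rplp0 and the acidic proteins Rplp1 and Rplp2. RPLP0 had 67247 and 80525 reads and a log2 ratio of 0.02, and rplp2 had 11188 and 13230 reads and a ratio of 0.01. RPLP1 had 29290 and 30088 reads, 2070 and 1805 CPM, or 1.15-fold lower in the mutant (interval 1.13 to 1.17). The 3 genes summed to 7614 wildtype and 7430 mutant CPM.

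Rpl5 and Rpl11 join the 5S ribosomal RNA in a small particle, which outside the ribosome can hold back Mdm2 and so stabilise p53. RPL11 (ENSDARG00000043509) had 25408 and 37252 reads, 1796 and 2235 CPM, or 1.24-fold higher (interval 1.22 to 1.26). Its log2 ratio of 0.315 lay just inside the limit of 0.322, as did its 0.321 with TMM factors. It lay past the limit at 0.35 with median-of-ratios factors and at 0.33 with the family left out of the library total. The RPL5 genes had log2 ratios of 0.15 (ENSDARG00000020197) and 0.08 (ENSDARG00000015862). The particle's genes summed to 5080 wildtype and 5792 mutant CPM.

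Of 8 genes at the rim of the exit tunnel, 7 lay above 0 with ratios up to 0.12, and RPL35 was the member below 0; their median was 0.04. Of 15 genes for the head of the small subunit, 14 lay above 0 and 1 below, with a median of 0.14 and a highest ratio of 0.20. The shares above 0 were 87.5% for the rim and 93.3% for the head, beside 79.7% of the family and 49.8% of all features. The small subunit as a whole had 82.4% above 0 and also a median of 0.14. In humans, mutations in some ribosomal protein genes cause Diamond-Blackfan anaemia, a failure of red cell formation. The 23 zebrafish genes matching that list had a median of 0.11, with 18 above 0 and 5 below. No gene of the list was higher past 0.322, and 3 were lower, namely rps27.1, RPL35 and the RPS26 gene above. The 3 lower genes were 13.0% of the list, beside 5.06% of the whole family and 18.2% of all features. Above 0 lay 78.3% of the list and 79.7% of the family.

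For 7 base symbols the family holds a pair of genes, counting paralogs whose name adds l1, and 5 of these pairs are described here. Reads from near-identical copies could have been split between them or left out by the authors' counting. Shares and sums of pairs, the Rps27 pair included, are therefore uncertain. The pair of Rps27 genes differed most between the libraries. rps27.1 held 66.98% of the pair's reads in the wildtype (interval 66.5% to 67.5%) and 54.3% in the mutant library (interval 53.7% to 54.9%). rps27.2 (ENSDARG00000055475) had 10159 and 12914 reads, 718 and 775 CPM, and a log2 ratio of 0.11. The pair summed to 2175 wildtype and 1696 mutant CPM, or a log2 ratio of -0.36.

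In the RPS26 pair the more abundant gene (ENSDARG00000030408) had 12816 and 14668 reads and a log2 ratio of -0.04. Its share of the pair was 65.6% in the wildtype (interval 64.9% to 66.2%) and 70.5% in the mutant library (interval 69.9% to 71.1%). The pair summed to 1382 and 1248 CPM, a lower sum in the mutant library, as for the Rps27 pair. Both sums carry the uncertainty of reads from near-identical copies, and rps27.2 by itself was higher in the mutant library.

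RPL22 and its paralog RPL22L1 had different ratios. RPL22L1 had 3179 and 3779 reads and a log2 ratio of 0.01, and RPL22 took 76.4% of the pair's wildtype reads (interval 75.7% to 77.1%) and 80.1% of its mutant reads (interval 79.5% to 80.7%). In the other pairs described the share of the more abundant gene differed by less. It was 53.2% and 52.02% for RPL5, and 95.7% and 95.1% for RPL7 beside RPL7L1, wildtype first. With the reads of such copies summed, chosen after seeing the data, 73 symbols remained, with a median log2 ratio of 0.13. Of these 58 lay above 0 and 15 below.

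**Figure D3:**
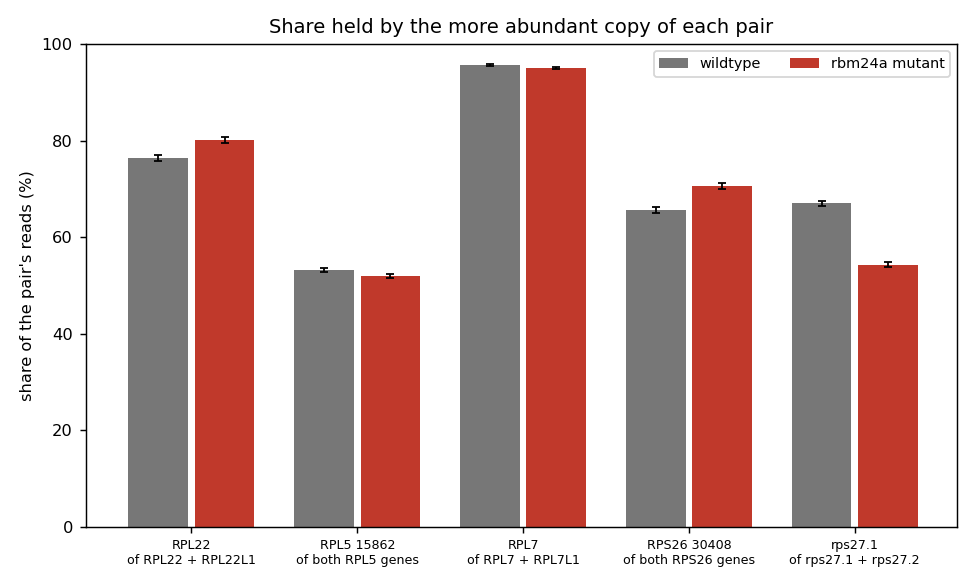
Share of a pair's reads (y axis, %) held by its gene with more wildtype reads, in the wildtype (grey) and mutant (red) library, for 5 pairs (x axis). Error bars are 95% exact intervals of counting error. The share of rps27.1 was 66.98% in the wildtype and 54.3% in the mutant library, and the other pairs shown differed by less.

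Levels can be compared between genes only per length, and the deposited RPKM values (CPM per kilobase) were used for this. The length behind them follows from count and RPKM, and for 4 of the 79 genes it is longer than the deposited length of the gene. Orders of single genes on this scale are therefore uncertain, while ratios between the libraries do not depend on it. In RPKM, rps20, a protein of the head of the small subunit, was the highest in both libraries, at 3968 in the wildtype and 4549 in the mutant. rpl32, RPS12, RPL11, RPS15 and RPS14 followed in the wildtype, at 3232, 3142, 2738, 2731 and 2626 RPKM. In the mutant library RPS12 stood at 3580 RPKM and rpl32 at 3540, and RPL11, RPS15 and RPS14 came next at 3407, 3077 and 2894.

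At the low end in RPKM were rps19bp1, RPL7L1, RPS24 and RPL22L1 in the wildtype, at 11.9, 45.3, 93.5 and 204. Without the genes named as paralogs or as a binding protein, the highest wildtype RPKM was 42.4 times the lowest. These were rps20 and RPS24, with lengths behind RPKM of 616 and 4780 bp, so the size of this range is uncertain. In wildtype CPM the 2 genes stood at 2444 and 447. The order was close to the same in both libraries, with a Spearman rho of 0.98 over the 79 genes, which share the 2 libraries and the lengths. rps27.1 moved down by 16 places, from rank 10 to rank 26, the RPS26 gene ENSDARG00000037071 by 13 and RPL6 by 10. No spread between samples is at hand to say which neighbours in the order differ.

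By mean CPM over both libraries the highest genes were RPS2, RPLP0, RPL3, rpl7a and RPS3A, in that order. CPM takes no account of length, so the orders by CPM here are of reads held and not of transcript level. By wildtype RPKM the same genes ranked 12, 9, 20, 29 and 40 from the top. In the wildtype library alone RPLP0 stood above RPS2, and RPL4, at 3303 CPM, above RPS3A, at 3188 CPM. RPS2 (ENSDARG00000077291), at the channel where mRNA enters, had 65694 and 87038 reads and a log2 ratio of 0.17. RPL3, part of the centre that forms peptide bonds, had 55984 and 67603 reads and a ratio of 0.04. rpl7a and RPS3A had ratios of 0.16 and 0.23. RPS24, among the fewest reads at 6325 and 8637, had a ratio of 0.21.

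**Figure D4:**
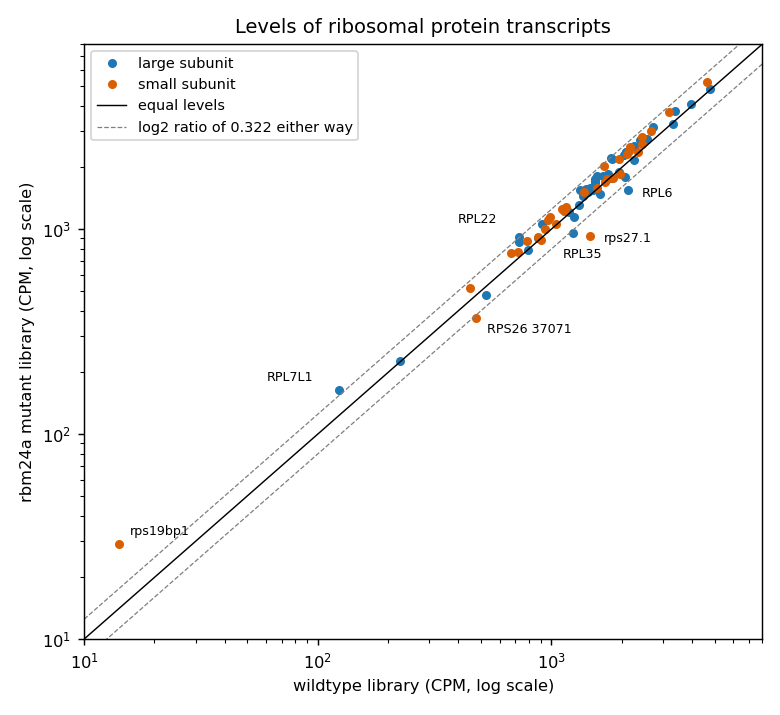
Level of each of 79 genes in the wildtype (x axis) and the mutant library (y axis), in CPM on log scales, with large and small subunit genes in separate colours, a solid line for equal levels and dashed lines at the limit of 0.322 on the log2 scale. Most points lie between the dashed lines and slightly above the solid line, and the 7 genes past that limit are labelled.

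Some ribosomal proteins carry names outside the rule. FAU, which encodes a ubiquitin-like protein fused to Rps30, had 14692 and 19859 reads and a log2 ratio of 0.20. RACK1, a signalling scaffold on the head of the small subunit, had 37637 and 44522 reads and a ratio of 0.01. RPSA2 and RPL36AL had ratios of 0.01 and 0.16, and rplp2l was at -0.08. These 5 were named after their values were seen. With them the family's median was 0.11, with 67 genes above 0 and 17 below.

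Ribosomes are assembled with the help of other proteins, and the list of these genes was centred near 0. Of 76 measured ribosome biogenesis genes, 38 lay above 0 and 38 below, with a median log2 ratio of 0.02. This was 50% each way, beside 49.8% above and 50.2% below for all features. Past 0.322, 10 were higher and 3 lower, or 13.2% and 3.95%. Both shares were below those of all features, 17.3% and 18.2%. LTV1, needed for maturation of the small subunit, had 397 and 954 reads, or 2.04-fold higher (interval 1.81 to 2.30). DDX51, a helicase of large subunit maturation, had 309 and 584 reads and a ratio of 0.66. NOP10, of the particles that modify ribosomal RNA, had 389 and 281 reads and a ratio of -0.67.

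Of the other mRNAs known or thought to begin with a TOP tract, mostly elongation and initiation factors, 12 of 30 measured lay above 0 and 18 below. Their median log2 ratio was -0.03, and 40% lay above 0, beside 49.8% of all features. Past 0.322, none was higher, beside 17.3% of all features, and 2 genes were lower, or 6.67%, beside 18.2%. The 2 lower genes were eef2a.1 and an EIF3H gene. eef2a.1, an elongation factor 2 gene, had 400 and 304 reads and a ratio of -0.61. The EIF3H gene (ENSDARG00000102452), for an initiation factor subunit, had 3811 and 3557 reads and a ratio of -0.33. Another EIF3H gene in the list (ENSDARG00000036116) was at -0.07. EIF3E was at -0.29 and eif3ea at -0.10. FAU and RACK1 are also in that list.

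The ribosomes of mitochondria have their own proteins. Of 73 measured genes for these, 44 lay above 0 and 29 below, with a median log2 ratio of 0.05. The share above 0 was 60.3%, beside 49.8% of all features. Past 0.322, 15 were higher and 8 lower, or 20.5% and 11.0%, beside 17.3% and 18.2% of all features. MRPL51 had 369 and 881 reads, or 2.03-fold higher (interval 1.79 to 2.29), while MRPS2 had 656 and 413 reads and a ratio of -0.88. MRPL33 had 115 and 69 reads and a ratio of -0.83. The genes of this list held 32695 wildtype reads in all and those of the biogenesis list 114159, beside 1866988 for the cytosolic family. The quartiles were -0.08 and 0.18 for the mitochondrial and -0.12 and 0.17 for the biogenesis list. They lay farther apart than those of the cytosolic family.

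**Figure D5:**
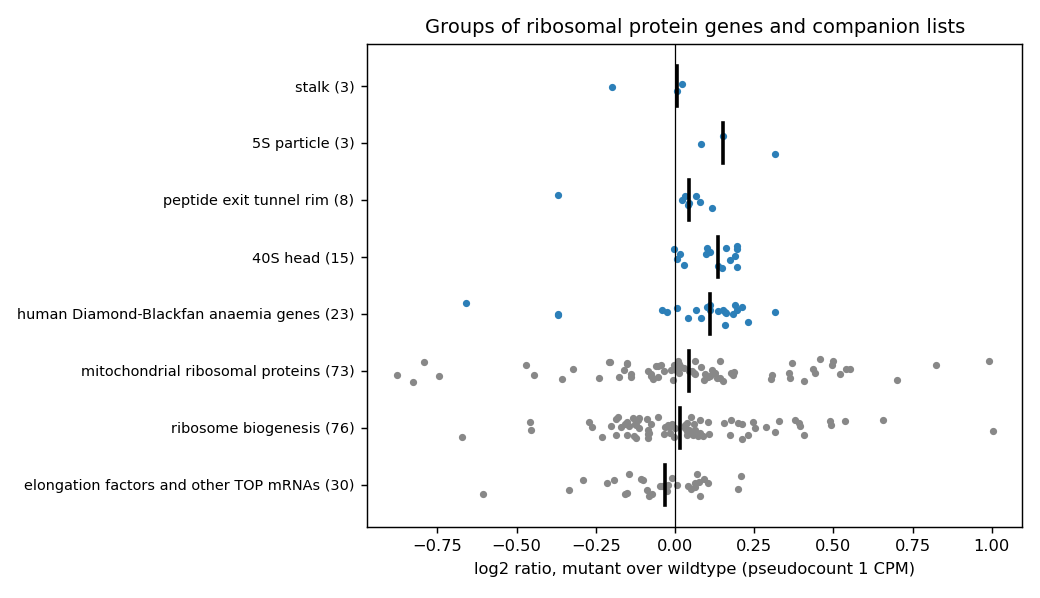
log2 ratio, mutant over wildtype with a pseudocount of 1 CPM (x axis), for each gene of 5 groups within the family (blue) and of 3 companion lists (grey), with the number of genes measured in brackets; black bars are medians and the vertical scatter has no meaning. The medians of the family's groups lie between 0.01 and 0.15, and those of the companion lists between -0.03 and 0.05.

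The authors' deposited table of differential expression lists 37 genes, beside 51544 features in the full table. Of the 37, 0 are ribosomal protein genes by the rule. With so few genes listed, a count of 0 among 80 members says little about the family.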

How the data were processed

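The submitters' processing notes name build GRCz11, HISAT2 2.0.1, HTSeq 0.6.1, DESeq2, cutadapt and bcl2fastq 2.17.1.14, without their roles. The strand setting is not given in the sources used here, so reads of overlapping genes may be mixed. The deposited table gives raw read counts and RPKM values per feature, and the authors scaled RPKM by the column sum of counts. Count and RPKM give the same length in both libraries within 1% for all 4526 features of at least 500 reads in each. The deposited table of the authors' comparison holds counts, FPKM, a fold, its log2 and a p-value per gene, and only its gene IDs were used. No column belonged to other samples (0).

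Counts were scaled to CPM by the column sum. A pseudocount of 1 CPM was added to both libraries before the log2 ratio of mutant over wildtype, and features averaging under 1 CPM were left out. Folds of single genes are ratios of CPM without the pseudocount, with 95% Clopper-Pearson intervals. PCR reads are not independent molecules, so these cover counting error only. With 1 library per group no test was made. Deposited RPKM replaced the planned level per coding length, for which no sequence was at hand. TMM factors came from edgeR 4.0.16. The steps were tested on simulated data. Sequence features were not analysed here.

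The genes, lists and limits were chosen with earlier results of these data known. Named were genes past a log2 ratio of 0.322 (up to 10 each way), the 5 with the highest and the 5 with the lowest mean CPM, copies, the stalk, the 5S particle and the 3 largest absolute ratios of each companion list. Other genes are examples within a described group and were named after their values were seen. Symbols came from the names table for 26147 of 31571 annotated genes. List symbols were matched exactly, then ignoring case, then without a final a or b, and 4 of 81 biogenesis and 3 of 33 TOP symbols had no match; groups within the family were matched ignoring case, with all copies. Values of some single genes of the family are not reported here, although they enter its counts and medians.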

Additional observations from a re-analysis of the deposited data

How the results depend on the processing

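No paired analysis was possible because there is 1 library in each group, which also leaves no replicate to drop. With median-of-ratios factors the median log2 ratio was 0.15 for the family, 0.12 for the large and 0.18 for the small subunit, and 0.0773, 0.0473 and -0.0025 for the mitochondrial, biogenesis and TOP lists. The summed fold was 1.09 with those factors, 1.069 with TMM, 1.076 without the family in the total, 1.060 with RPKM and 1.063 with the 5 genes outside the rule. The median of all features, -0.001, became 0.00213 with RPKM, 0.0282 with median-of-ratios factors, 0.00371 with TMM and 0.0107 without the family in the total. The number higher by 2-fold was 1, rps19bp1, with median-of-ratios or TMM factors, without the family in the total and with a pseudocount of 0.1 CPM. The number higher past a log2 ratio of 0.322 was 4, RPL11 being added, with median-of-ratios factors and without the family in the total. It was 1, RPL22, without paralog and binding protein names. It was 1 without genes in copy pairs and 1 with copies summed, in both cases rps19bp1, which is not a ribosomal protein. Without copy pairs 2 were lower. Fewer genes enter in these settings by construction. None of 25 named genes changed sign under the alternatives run. Counting error had a median half-width of 0.026 on the log2 scale, and variation between samples was not measured.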

Other observations

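Across the 79 measured genes the log2 ratio had a Spearman rho of 0.06 with the mean level in log2 CPM and of 0.06 with the length behind RPKM, a description over genes that share the same libraries. Of 70 of these genes placed by symbol in RefSeq assembly GRCz12tu, 7 lie on the chromosome of rbm24a. Of the 7, rps27.1 and RPLP1 had log2 ratios below 0 (-0.66 and -0.20), and 5 lay above 0, up to 0.315 for RPL11. On other chromosomes 11 of 63 lay below 0.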
